A study of Mus musculus with 24 samples.

Results

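The 7 genes Car4, Fabp1, Ear1, Ear2, Krt79, Plet1 and Cidec were chosen by name, as genes known to mark alveolar macrophages (AMs), and all 7 were found among the 45706 genes of the count table. They were followed library by library in FACS-sorted AMs, Kupffer cells (KCs), microglia (MG) and peritoneal macrophages (PMs), analysed ex vivo, and in the matching tissue resident macrophage-like cells (TRM-LCs: AM-LCs, KC-LCs, MG-LCs and PM-LCs), analysed in vitro after culture, with 3 libraries in each of the 8 groups. All cells came from female C57BL/6J mice, with an age of 8 to 12 weeks in the labels, and no group carried an engineered allele. Sorted AMs were gated as CD45+ SiglecF+ CD11b low cells from lung. AM-LCs were grown from lung on a polyethyleneimine coating with GM-CSF, in atmospheric oxygen and without glucose, whereas KC-LCs and PM-LCs received M-CSF and MG-LCs received M-CSF with IL-34, in low oxygen and high glucose. Each flask of AM-LCs, MG-LCs or PM-LCs pooled the organs of 3 mice and each flask of KC-LCs held 1 liver. The cultures were not sorted before RNA was taken, so that other cells of the organ could be present, and the effects of growth factor, oxygen and glucose cannot be told apart between AM-LCs and the other TRM-LCs.

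AMs live on the air side of the lung, where they take up and break down surfactant, a film rich in lipid and protein. Their development depends on GM-CSF from the lung epithelium, which acts through the transcription factor PPAR gamma, and they carry a set of genes that other tissue macrophages hardly use. The 7 genes belong to different protein families. Car4 encodes a carbonic anhydrase anchored to the cell surface that interconverts CO2 and bicarbonate. Fabp1 encodes the fatty acid binding protein best known from liver, and Cidec a lipid droplet protein that helps droplets fuse. Ear1 and Ear2 encode secreted ribonucleases of the RNase A family, named for eosinophils. Krt79 encodes a keratin, and Plet1 a surface glycoprotein also found on epithelial progenitors.

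In GRCm38, the assembly to which the authors aligned, Car4 lies at chr11:84957786-84966044 on the plus strand, Fabp1 at chr6:71199827-71205023 (plus), Krt79 at chr15:101929332-101940324 (minus), Plet1 at chr9:50494525-50505482 (plus) and Cidec at chr6:113424634-113435760 (minus). Ear1 (chr14:43818765-43875517, minus) and Ear2 (chr14:44102654-44103534, plus) lie near each other on chromosome 14 with Ear10 (chr14:43922720-43923559, minus) between them, and Ear6 (chr14:51853699-51854643, plus), is a more distant copy. Ear10 and Ear6 are not among the 7 genes. The first 120 coding bases of the 3 Ear genes are shown because the results below turn on telling these copies apart. Capitals mark the 16 positions at which the 3 genes are not all alike, and the sequences are the GENCODE transcripts, given 5′ to 3′ on the coding strand.
Ear1, chr14:43819290-43819409: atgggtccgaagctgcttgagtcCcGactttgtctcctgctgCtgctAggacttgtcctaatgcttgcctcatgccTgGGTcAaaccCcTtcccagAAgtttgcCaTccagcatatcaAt
Ear2, chr14:44102887-44103006: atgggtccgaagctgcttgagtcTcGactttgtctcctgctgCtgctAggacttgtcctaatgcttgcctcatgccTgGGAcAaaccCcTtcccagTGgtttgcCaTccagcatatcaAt
Ear6, chr14:51853998-51854117: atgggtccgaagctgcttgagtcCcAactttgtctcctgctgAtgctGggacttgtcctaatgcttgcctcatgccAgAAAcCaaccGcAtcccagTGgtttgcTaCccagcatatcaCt
Over this stretch Ear2 differs from Ear1 at 4 bases and Ear6 at 15. Over the whole coding sequence, Ear1 and Ear2 were identical at 95.1% of aligned bases and Ear1 and Ear6 at 87.3%, while Ear10 was closer to Ear2 (97.0%) than to Ear1 (94.4%). Of all 50-base windows of the Ear1 transcript, the length of the sequenced reads, 57.4% also occurred in another annotated transcript, against 41.5% for Ear2 and 1.07% for Ear6. For Plet1 it was 11.0%, mainly shared with its antisense transcript Plet1os, and for Car4, Fabp1, Krt79 and Cidec no window was shared. Read counts of Ear1 and Ear2 are therefore uncertain as levels, and for Plet1 the libraries, which did not keep strand, cannot tell sense from antisense. Plet1os itself was counted at 1.40 to 3.20 CPM (reads of a gene per 1000000 counted reads, after TMM scaling in edgeR) in the 6 AM and AM-LC libraries. Ear1 and Ear2 also overlap annotated non-coding RNAs and pseudogenes.

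The near identity of Ear1 and Ear2 extended upstream. The 250 bases before the start of each gene in RefSeq (GRCm38.p6) were identical at 246 of 252 aligned columns, 97.6%, with capitals at the bases that differ or have no partner.
Ear1, chr14:43819640-43819889, minus strand: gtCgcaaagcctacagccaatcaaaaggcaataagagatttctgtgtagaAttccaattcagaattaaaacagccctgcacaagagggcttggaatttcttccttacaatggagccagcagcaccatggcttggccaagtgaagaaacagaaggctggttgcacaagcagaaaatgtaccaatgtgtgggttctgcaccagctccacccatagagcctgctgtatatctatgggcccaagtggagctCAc
Ear2, chr14:44102404-44102653, plus strand: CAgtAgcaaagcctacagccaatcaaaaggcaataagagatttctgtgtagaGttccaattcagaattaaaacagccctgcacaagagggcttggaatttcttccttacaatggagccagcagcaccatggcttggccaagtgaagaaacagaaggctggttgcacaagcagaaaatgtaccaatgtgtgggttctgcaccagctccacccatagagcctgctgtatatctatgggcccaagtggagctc
Short motifs were searched on both strands of the 250 bases before each gene. The core motif of many nuclear receptors, AGGTCA, occurred in 14.0% of 32851 promoters of this length. It was found before Fabp1 (2 matches) and Plet1 (1 match), shown with capitals at AGGTCA or GAGGAA on either strand, and not in the windows of the other members. GAGGAA, a core sequence for ETS factors such as PU.1, occurred in 23.3% of promoters and once before Fabp1.
Fabp1, chr6:71199629-71199878, plus strand: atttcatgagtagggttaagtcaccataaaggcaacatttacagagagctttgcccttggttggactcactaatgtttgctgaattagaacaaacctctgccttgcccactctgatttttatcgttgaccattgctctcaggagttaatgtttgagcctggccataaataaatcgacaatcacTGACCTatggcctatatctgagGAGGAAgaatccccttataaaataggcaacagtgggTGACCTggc
Plet1, chr9:50494275-50494524, plus strand: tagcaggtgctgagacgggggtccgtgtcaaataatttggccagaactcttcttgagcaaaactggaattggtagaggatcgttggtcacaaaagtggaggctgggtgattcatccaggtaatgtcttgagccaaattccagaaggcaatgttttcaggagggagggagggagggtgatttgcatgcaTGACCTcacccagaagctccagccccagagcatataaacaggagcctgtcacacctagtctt
TATAAA occurred in 12.4% of all promoters and in those of Fabp1 and Plet1, 30 bases before the start in each. The AP-1 motif TGANTCA (6.75% of promoters) matched once before Plet1 and once before the second RefSeq start of Cidec, the C/EBP motif TTNNGNAA (36.8%) matched in every member's window other than that of Krt79, and the DR1 motif, a direct repeat of the nuclear receptor core (0.0335%), matched in none of them. A match is a match of letters and no measurement of binding.

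**Figure D1:**
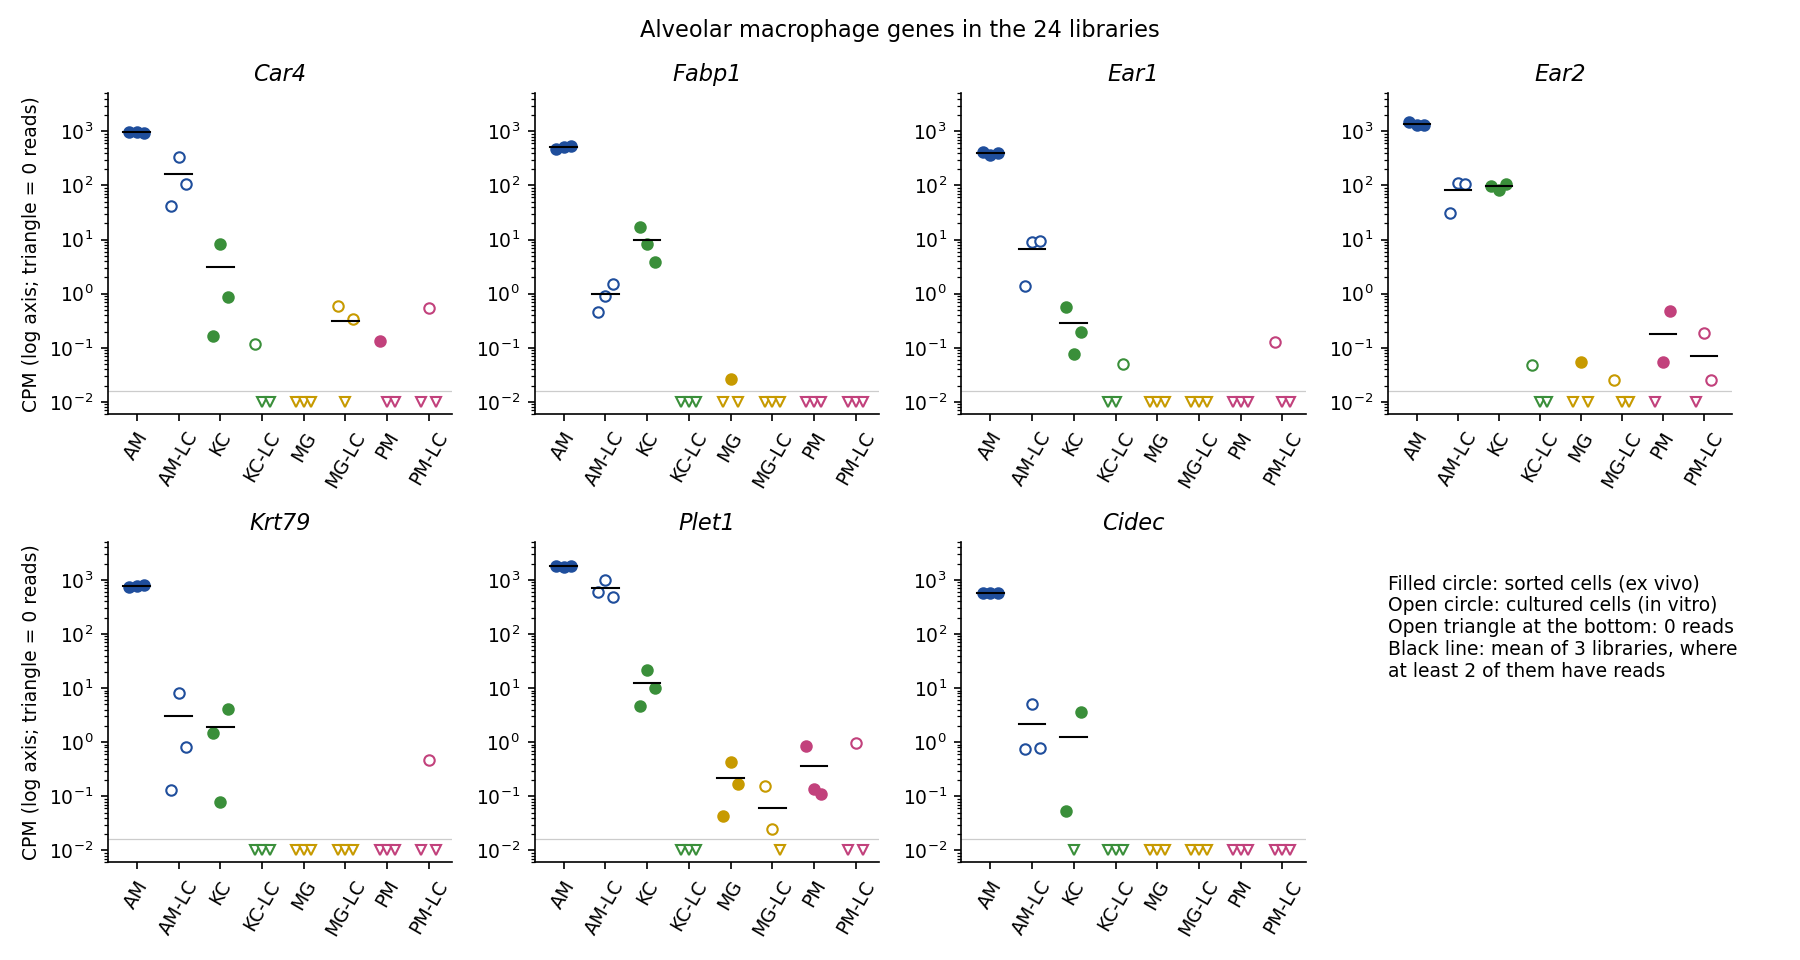
Level of the 7 genes (CPM, log axis) in the 24 libraries, with 1 panel per gene and the 8 groups on the horizontal axis. Filled circles are sorted cells, open circles cultured cells, open triangles libraries with 0 reads, and black lines means of the 3 libraries where at least 2 have reads. In every panel the 3 sorted AM libraries are on top, and the spread among AM-LC libraries is wider than among sorted AMs.

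Sorted AMs expressed all 7 genes at high and even levels. Plet1 was found at 1839, 1695 and 1838 CPM in the 3 libraries (1790.5 ± 82.8, SD, n = 3) and Ear2 at 1460.4, 1337 and 1322 CPM (1373 ± 76.1). Car4 stood at 984, 957 and 918 CPM (953 ± 33.0), and Krt79 at 729, 762 and 792 CPM (761 ± 31.5). The highest library was at most 1.15 times the lowest for any of the 7 genes. Cidec was the most even, at 569, 564 and 564 CPM (566 ± 2.66), next to Fabp1 at 468, 521 and 538 CPM (509 ± 36.4) and Ear1 at 407, 367 and 402 CPM (392 ± 21.8). Per kilobase of transcript, which allows genes to be compared, the order in sorted AMs was Ear2 (1909 CPM per kb), Plet1 (1060.1), Fabp1 (921), Car4 (759), Ear1 (550), Krt79 (363) and Cidec (329). Krt79 and Cidec are close neighbours in this order, and the places of Ear1 and Ear2 carry the uncertainty of their shared windows.

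The labelled identity of these libraries was checked against markers. Siglecf, the surface lectin used in the sort, was found at 643 to 662 CPM in sorted AMs and at no more than 45.4 CPM in any other sorted library. The 8 pan-macrophage markers, led by Lyz2, summed to 36477 to 53728 CPM in AMs. Of the other cell types that a lung sort could hold, 8 eosinophil markers summed to at most 0.472 CPM, with no read of Prg2, Epx or Ccr3, and 8 endothelial markers to at most 1.19 CPM, with no read of Cdh5. The 8 airway epithelium markers summed to 280 to 340 CPM, led by Epcam and Cdh1. The 8 alveolar type 2 markers summed to 140 to 173 CPM, led by Abca3, and all 8 had reads. In the other sorted cells 5 of them, the surfactant genes Sftpc, Sftpb, Sftpa1 and Sftpd and Slc34a2, had none in any group. Muc1 stayed at 1.67 CPM or less, Sftpc was found at 3.46 to 8.25 CPM and Scgb1a1 of club cells at 2.96 to 9.56 CPM. The part of such cells in the levels of Krt79 and Plet1, genes also known from epithelia, was not tested.

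As a description without a test, since the genes were chosen as AM genes, all 3 sorted AM libraries were above all 9 other sorted libraries for 7 of 7 genes, which held for 12.1% of the 17408 genes that passed the low-count filter over all libraries. MG and PMs were close to empty. Ear1, Krt79 and Cidec had 0 reads in all 6 of these libraries, Fabp1 had 1 read and Car4 had 4 reads in all. Ear2 reached at most 0.488 CPM (18 reads in 1 PM library) and Plet1 at most 0.869 CPM. A gene with no read could have been present at up to 0.0661 to 0.114 CPM, depending on the library (3 reads, counting error only).

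KCs were the exception among the other sorted cells. Ear2 was found in all 3 KC libraries at 97.3, 83.2 and 107 CPM (95.9 ± 12.2, n = 3), which was 6.99% of the AM mean, with a highest library only 1.29 times the lowest. Ear1, in contrast, had 21, 3 and 7 reads in the same libraries, 0.571, 0.0778 and 0.200 CPM, or 0.0721% of the AM mean. Ear10, the copy closest to Ear2, had 0, 29 and 14 reads in these KC libraries, 43 in all against 31 of Ear1, and 13 reads in all 3 sorted AM libraries. Sorted KCs thus held Ear2 without a matching share of Ear1, although the coding and upstream sequences printed above differ at few bases.

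The other 5 genes were uneven among KC libraries. Fabp1 was found at 16.9, 8.25 and 3.91 CPM and Plet1 at 4.76, 22.0 and 10.2 CPM. Car4 reached 8.33 CPM in KC library 2, next to 0.163 and 0.856 CPM in libraries 1 and 3. Krt79 and Cidec, in contrast, were highest in library 3, at 4.16 and 3.62 CPM, and in library 2 they had 3 reads and 0 reads. No single KC library was therefore highest for all members, and their proportions were not those of sorted AMs, where reads of Krt79 were 0.741 to 0.862 of those of Car4, against 9.17, 0.00935 and 4.87 in the 3 KC libraries.

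Markers of other cells were also present in sorted KCs. Fabp1 is a gene of hepatocytes, and the 8 hepatocyte markers summed to 241, 103 and 117 CPM in KC libraries 1 to 3, all 8 with reads, against at most 0.870 CPM in any AM library. Within that list Apoa1 (47.4, 28.1 and 17.4 CPM) and Ttr (16.4, 7.01 and 2.68 CPM) had the order of Fabp1 over the 3 libraries, and Alb (129, 41.2 and 71.5 CPM) did not. Endothelial markers summed to 209 to 481 CPM, eosinophil markers to 6.52 to 18.6 CPM, with Ccr3 at 1.68 to 16.2 CPM but no read of Prg2 or Epx, and dendritic cell markers to 119 to 806 CPM. The AM genes Chil3 (32.1, 156 and 58.6 CPM) and Siglecf (5.82, 13.3 and 0.770 CPM) were, like Car4 and Plet1, highest in library 2. Other AM genes were not. Itgax (213, 59.3 and 26.4 CPM) was highest in library 1, and Pparg (22.7, 30.9 and 34.7 CPM) and Marco (1519, 1204 and 1856 CPM) in library 3. The part of any of these cells in the KC values was not tested.

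**Figure D2:**
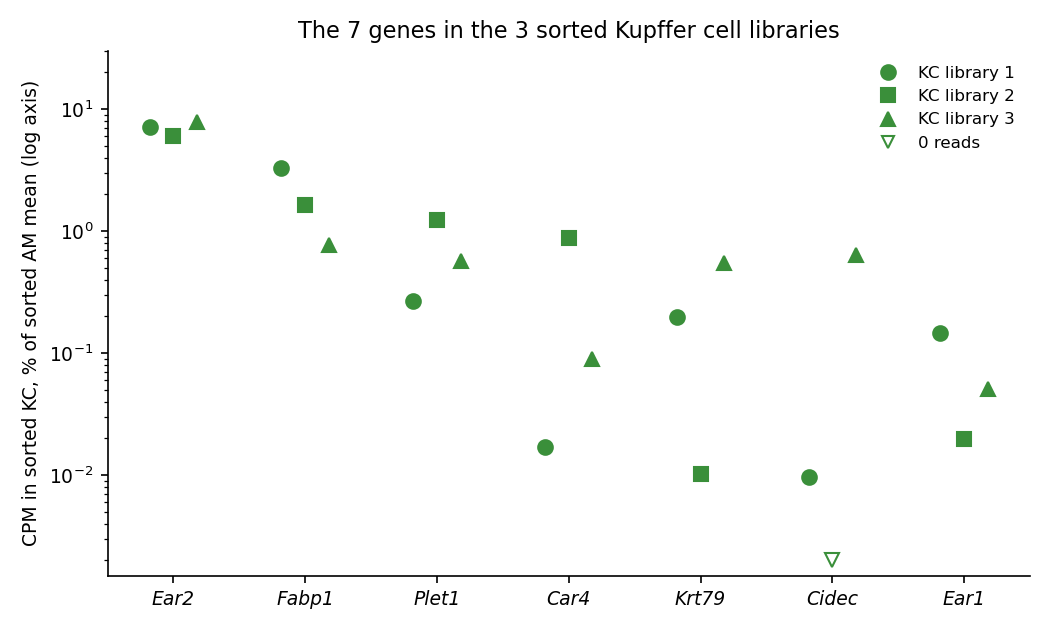
Level of the 7 genes in each sorted KC library as a percent of the mean of sorted AMs (log axis), with 1 symbol per library and an open triangle for 0 reads. Ear2 lies at a similar height in the 3 libraries, around its mean of 6.99%, while the highest library is 51.1 times the lowest for Car4 and 53.5 times for Krt79, and Cidec has 0 reads in library 2.

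Culture separated the members of the set. Compared with sorted AMs, AM-LCs kept Plet1 at 38.8% of the level and Car4 at 16.8%, Ear2 and Ear1 at 6.04% and 1.68%, and Krt79, Cidec and Fabp1 at 0.403%, 0.390% and 0.191%. All 3 sorted AM libraries were above all 3 AM-LC libraries for 7 of 7 genes, a pattern seen in 30.7% of the 13196 genes tested. Of the 7 genes, 6 were called higher in sorted AMs (adjusted p below 0.05 and a log2 fold change above 1.5 in the quasi-likelihood test of edgeR, Benjamini-Hochberg adjusted over all genes tested), against 8.62% of all genes tested, and none was called lower, against 12.9%. Krt79, 1 of the 6, passed the low-count filter only through the sorted AM libraries, so that its call is a description. The median log2 fold change was 5.88 over the 7 genes and -0.04 over all genes. In libraries made from many cells, fewer expressing cells and less RNA per cell cannot be told apart.

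The surface proteins Plet1 and Car4 showed the smallest differences. Plet1 was found at 609, 982 and 492 CPM in the 3 AM-LC libraries (694 ± 256, SD, n = 3), with a log2 fold change of 1.37 (SE 0.24, adjusted p = 0.0031, edgeR), which passed the p threshold but not the fold threshold. Without AM-LC library 2 the log2 fold change was 1.68 and Plet1 was called, and over the alternatives the adjusted p was 7.39e-08 to 0.25. Car4 was uneven, at 42.4, 333 and 106 CPM (160 ± 153), with library 2 at 7.86 times library 1, and without library 2 its level fell from 16.8% to 7.78% of sorted AMs. Its log2 fold change was 2.57 (SE 0.67, adjusted p = 0.016, edgeR), and in a model of all 24 libraries the adjusted p was 0.0952 (0.00143 to 0.0952 over the alternatives). Plet1 was the better kept of the pair in all 3 AM-LC libraries, at 34.0%, 54.8% and 27.5% of the sorted AM mean against 4.45%, 34.9% and 11.1% for Car4, and the 2 shares were closest, as a ratio, in library 2.

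The secreted ribonucleases fell further, and to a different extent. Ear2 was found at 30.8, 111 and 107 CPM (82.9 ± 45.2, n = 3) and Ear1 at 1.37, 8.85 and 9.47 CPM (6.57 ± 4.51). Library 1 was the lowest for both. The log2 fold changes were 4.03 for Ear2 (SE 0.50, adjusted p = 7.90e-04, edgeR) and 5.88 for Ear1 (SE 0.70, adjusted p = 6.71e-04, edgeR). AM-LCs and sorted KCs overlapped in their level of Ear2, at 30.8 to 111 CPM and 83.2 to 107 CPM, but not in that of Ear1.

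The ratio of Ear2 to Ear1 reads within a library, which does not depend on normalization, was 3.59, 3.64 and 3.29 in sorted AMs, 22.4, 12.5 and 11.3 in AM-LCs and 170.5, 1068 and 538 in sorted KCs. The value of 1068 rests on 3 Ear1 reads and has a 95% counting interval of 365 to 5183 (exact binomial). The 3 groups did not overlap in this ratio. With 3 libraries against 3, an exact permutation test cannot give a two-sided p below 0.1, and it gave 0.1 for each of the 3 pairs of groups. Divided by the number of windows that each gene shares with no other transcript, the ratio was 2.37 to 2.63, 8.17 to 16.2 and 123 to 771 in the 3 groups.

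Ear6 went the other way. It was found at 7.83, 6.78 and 7.53 CPM in sorted AMs and at 23.0, 166 and 40.6 CPM in AM-LCs, a log2 fold change of -3.37 (SE 0.71, adjusted p = 0.0070, edgeR), and it had 0 reads in all 9 libraries of the other TRM-LCs. Reads of Ear6 and Ear2 were 703 and 942 in AM-LC library 1, 4357 and 2904 in library 2 and 1131 and 2988 in library 3, so that Ear6 exceeded Ear2 in 1 of 3 libraries, whereas in sorted AMs there were 0.00507 to 0.00570 Ear6 reads per Ear2 read. Its relative Rnase2a rose in culture as well, from 0.179 to 0.205 CPM to 6.93 to 12.7 CPM. Eosinophils are known for ribonucleases of this family. The 8 eosinophil markers, of which Rnase2a is one, summed to 12.8 to 15.3 CPM in AM-LCs and 0.256 to 0.472 CPM in sorted AMs. In AM-LCs Prg2, Epx, Prg3 and Ccr3 had no read, while Il5ra, Alox15, Ptgdr2 and Rnase2a had reads. Alox15 and Rnase2a were called higher in AM-LCs than in sorted AMs. The part of eosinophils in these values was not tested.

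**Figure D3:**
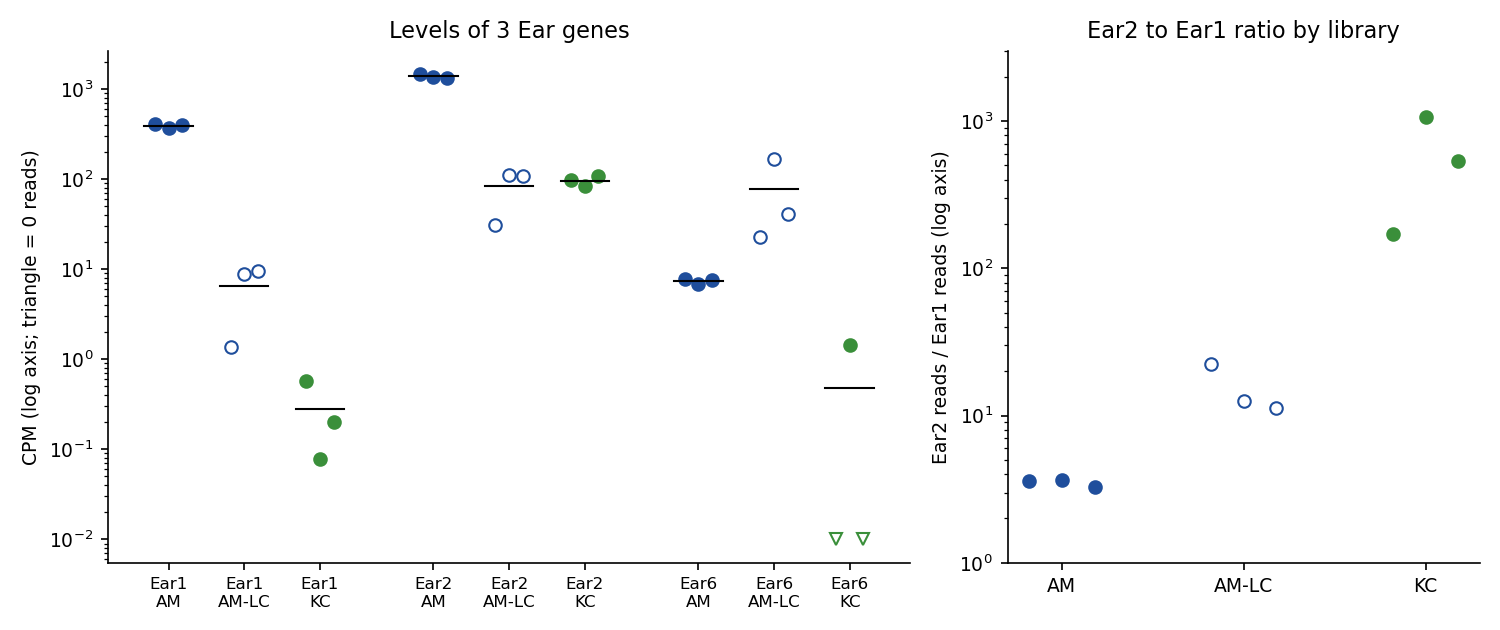
Left, level of Ear1, Ear2 and Ear6 (CPM, log axis) in the libraries of sorted AMs (filled blue), AM-LCs (open blue) and sorted KCs (filled green), with black lines at the means and open triangles for 0 reads. Right, Ear2 reads over Ear1 reads in each library (log axis), which lie from 3.29 to 3.64 in AMs, from 11.3 to 22.4 in AM-LCs and from 170.5 to 1068 in KCs.

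The lipid genes and the keratin fell furthest. Fabp1 was found at 0.457, 0.916 and 1.54 CPM in AM-LCs (14, 24 and 43 reads, 0.972 ± 0.545 CPM), which made it 524-fold lower than in sorted AMs (log2 fold change 9.02, SE 0.44, adjusted p = 4.70e-05, edgeR). Cidec was found at 0.751, 5.08 and 0.789 CPM (2.21 ± 2.49), 256-fold lower (log2 fold change 8.03, SE 0.80, adjusted p = 3.35e-04, edgeR). Krt79 had 4, 216 and 23 reads, or 0.131, 8.24 and 0.825 CPM (3.07 ± 4.50), a log2 fold change of 7.98 (SE 1.24, adjusted p = 0.0021, edgeR). With 4 reads in library 1 it passed the low-count filter only through the sorted AM libraries, and the call is a description. Library 2 alone set the mean of Krt79, at 63.1 times library 1, and without it the level fell from 0.403% to 0.0628% of sorted AMs and the log2 fold change was 10.63. For Cidec the level without library 2 was 0.136%. Fabp1 was highest in library 3 and Krt79 and Cidec in library 2, so that AM-LC libraries did not differ by 1 common factor.

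The cultures also held markers of other cells. Fibroblast and mesothelium markers, 8 genes, summed to 17.0, 181 and 1667 CPM in AM-LC libraries 1 to 3 and to at most 0.657 CPM in sorted AMs. Library 3, with the highest sum, was the highest for Ear1 and Fabp1, and library 1, with the lowest, was the lowest for 6 of the 7 genes. The pan-macrophage markers summed to 46974 to 87392 CPM in AM-LCs, no lower than 36477 CPM, the lowest sorted AM library. Both sums were mostly Lyz2, at a mean of 58312 CPM in AM-LCs and 40268 CPM in sorted AMs, and say little of the other markers in the list. Endothelial markers, which bear on Car4 because lung capillaries express it, summed to 31.5 to 81.4 CPM, led by Ednrb, and Cdh5 was at 1.31 to 3.30 CPM. The 8 hepatocyte markers, which bear on Fabp1, summed to at most 0.825 CPM. The 8 dendritic cell markers summed to 159, 57.6 and 54.6 CPM in AM-LC libraries 1 to 3 and to 3.22 to 6.13 CPM in sorted AMs. Ccr7, Itgae, Cd209a, Clec9a, Clec10a and Zbtb46 were called higher in AM-LCs than in sorted AMs. Xcr1 was not called, and Flt3 had reads in sorted AMs and none in AM-LCs. The highest sum of this list was in library 1, the lowest for 6 of the 7 genes. The 8 T and NK cell markers summed to 239 to 305 CPM in AM-LCs and 3.07 to 6.21 CPM in sorted AMs. Il7r made up nearly all of the sum in AM-LCs, at a mean of 268 CPM, and was called higher there. Trac and Nkg7 were called higher in sorted AMs instead, and Cd4 and Klrb1c were not called. Cd3e and Cd3d had no read in AM-LCs. Epithelial markers bear on Krt79 and Plet1. The airway list summed to 216, 61.0 and 83.9 CPM in AM-LCs, below the 280 to 340 CPM of sorted AMs, and Muc1 had no read. Epcam fell from 176 ± 23.8 CPM to 14.0 ± 10.7 CPM (log2 fold change 3.66, adjusted p = 0.0012, edgeR), Sftpc fell to at most 0.0359 CPM (adjusted p = 4.18e-04, edgeR), and Cdh1 was not called (123 ± 27.4 and 105.5 ± 73.4 CPM). Sftpc passed the low-count filter only through the sorted AM libraries, so that its call is a description. The type 2 list summed to 213 to 497 CPM in AM-LCs, above the sorted AMs, and was led by Napsa. The part of other cells in the AM-LC values was not tested further.

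**Figure D4:**
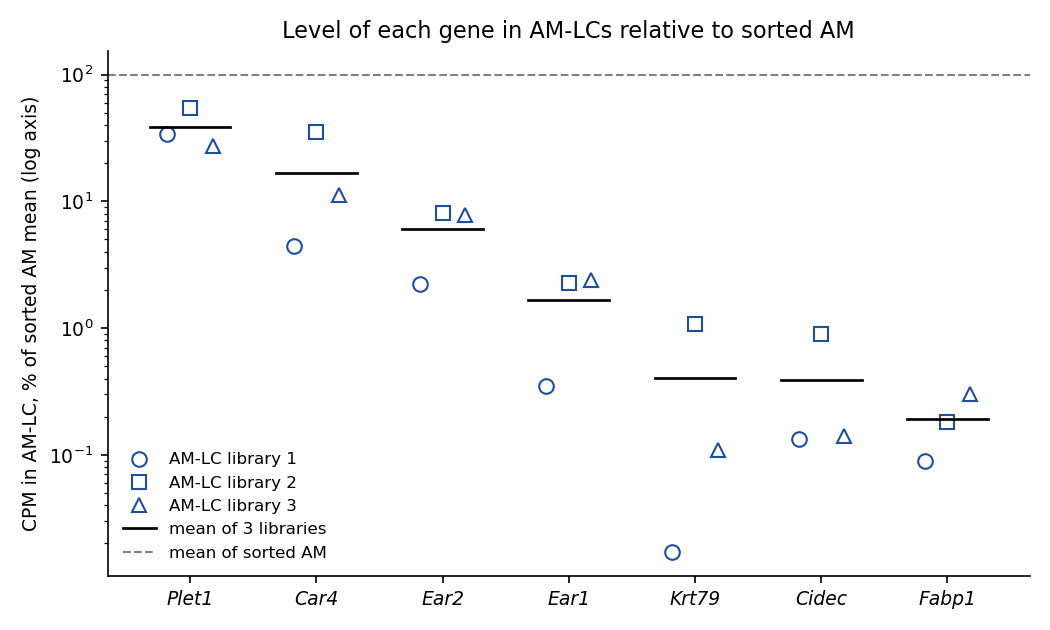
Level of each gene in the 3 AM-LC libraries as a percent of the mean of sorted AMs (dashed line at 100%, log axis), ordered by the mean of the 3 libraries (black lines). The means run from 38.8% for Plet1 to 0.191% for Fabp1, and library 2 (squares) is the highest for 5 of the 7 genes.

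Low as some levels were, AM-LCs remained apart from the other cultures. Compared with the mean of MG-LCs, KC-LCs and PM-LCs, 7 of 7 genes were called higher in AM-LCs (edgeR), against 4.75% of the 14813 genes tested, and 2.5% of genes were called lower. The direction was not open, since the genes were chosen as AM genes. Fabp1, Cidec, Ear1, Ear2, Krt79 and Plet1 also had too few reads in the 9 other libraries to pass the low-count filter without AM-LCs. The calls against the other cultures and their adjusted p values are therefore a description. All 3 AM-LC libraries were above all 9 other libraries for 6 genes, Krt79 being the exception, against 7.53% of genes. When MG-LCs, KC-LCs and PM-LCs were taken singly, 3 genes, Car4, Ear2 and Plet1, were called higher in AM-LCs against all of them, as were 0.965% of genes.

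Plet1 had 39 reads in the 9 other libraries together, 32 of them in PM-LC library 2, and its level in AM-LCs was 6027-fold that of the other cultures (adjusted p = 2.66e-04, edgeR). Ear2 had 10 reads in the 9 libraries and was 2809-fold higher in AM-LCs (adjusted p = 3.03e-05, edgeR). Car4, with 58 reads in 4 of the 9 libraries, was 937-fold higher (adjusted p = 4.23e-04, edgeR). The highest single library outside AM-LCs was MG-LC library 1 for Car4, at 0.590 CPM, and PM-LC library 2 for Plet1 and Ear2, at 0.983 and 0.184 CPM. These ratios moved with single libraries. Without PM-LC library 2 they were 30351 for Plet1 and 6347 for Ear2, and without AM-LC library 2 the ratio for Car4 was 433. Each AM-LC library was above each of the 9 others for these 3 genes.

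For the 4 other genes the difference rested on few reads. Ear1 had 6 reads in the 9 libraries and was 371-fold higher in AM-LCs (adjusted p = 0.0028, edgeR). Fabp1 and Cidec had 0 reads in all 9, so that AM-LCs were at least 110-fold and at least 249-fold higher, against a floor of 3 reads over the 9 libraries (adjusted p = 0.010 and 0.0113, edgeR). Without AM-LC library 2 the bound for Cidec was 87.0-fold. Without PM-LC library 1, which held 4 of the 6 Ear1 reads, the ratio for Ear1 was 1010.2 with a counting interval of 280 to 8342. Krt79 had 15 reads, all in PM-LC library 2 (0.461 CPM), which placed that library above AM-LC library 1 at 0.131 CPM (adjusted p = 0.0318, edgeR). Without AM-LC library 2 the calls of Krt79, Cidec and Fabp1 were lost (adjusted p = 0.175, 0.0583 and 0.0595), and the call of Fabp1 was also lost without AM-LC library 3 (adjusted p = 0.0531). That of Krt79 was lost without AM-LC library 3, PM-LC library 1 or 3, or any 1 of the KC-LC libraries (adjusted p = 0.0521 to 0.0635). Over all alternatives the adjusted p was 0.0050 to 0.175 for Krt79, 4.52e-04 to 0.0583 for Cidec and 5.47e-05 to 0.0714 for Fabp1.

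The members found in sorted KCs were nearly absent from KC-LCs. KC-LCs had 2 reads of Ear2 in 1 of 3 libraries and none of Fabp1 or Plet1. These 3 genes, the ones that passed the low-count filter, could pass it only through the sorted KC libraries. No other direction could therefore be called, and the calls are a description. All 3 were called higher in sorted KCs than in KC-LCs (adjusted p = 1.09e-04, 0.0027 and 0.0024, edgeR), against 14.7% of the 13629 genes tested. Ear2 was 5827-fold higher, with a counting interval of 1613 to 48117 from its 2 reads, Fabp1 at least 392-fold and Plet1 at least 499-fold, against a floor of 3 reads over the 3 KC-LC libraries. The bound was 246-fold for Fabp1 without KC library 1 and 304-fold for Plet1 without KC library 2, and without KC-LC library 1 it was 2552-fold for Ear2, 257-fold for Fabp1 and 328-fold for Plet1. Alb was at 0.0252 CPM or less in KC-LCs, and the part of hepatocytes in the Fabp1 difference was not tested. In MG and PMs no member passed the filter, and their libraries held at most 26 reads of any member ex vivo and 32 in vitro.

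An interaction term over all 24 libraries asked if the change with culture differed between AMs and the mean of the other 3 organs. With edgeR 0 of the 7 genes were called (adjusted p below 0.05), against 17.1% of 17408 genes. With limma-voom 5 of 7 were called, all but Car4 and Ear2, beside 1785 genes called higher and 1666 called lower of the 17408. These 5 genes had few or no reads in MG and PMs, sorted or cultured, so that no fall like that of AMs could be seen there. The limma-voom calls are therefore a description. In edgeR 1 of the 7 had an unadjusted p below 0.05. That gene was Plet1, with a log2 difference of -3.19 (SE 1.40, unadjusted p = 0.0354, adjusted p = 0.136, 0.010 to 0.256 over the alternatives), relative to the mean of the other 3 organs. That mean was set by KCs, where the log2 change of Plet1 in the same model was 11.81, with no read in KC-LCs, against 1.71 (SE 1.49) in MG, 0.15 (SE 1.15) in PMs and 1.37 (SE 0.87) in AMs. It was called without PM-LC library 2 (adjusted p = 0.010). Car4 (adjusted p = 0.281) and Ear2 (adjusted p = 0.763) were not called by either tool. For Fabp1, Ear1, Krt79 and Cidec, several groups had no reads, and the edgeR fit gave no usable error.

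Relatives of the members differed in both directions between AMs and AM-LCs, beside 8.62% of all genes called higher in AMs, 12.9% called higher in AM-LCs and a median log2 fold change of -0.04. Of 10 fatty acid binding protein genes 5 were tested, Fabp1 was called higher in sorted AMs and the other 4 were called higher in AM-LCs. Fabp5, a carrier of fatty acids in macrophages, was at 274 ± 55.1 CPM in AMs and 1913 ± 297 CPM in AM-LCs, and Fabp4 at 128 ± 22.5 and 518 ± 213 CPM. Fabp7 and Fabp3, at 0.181 and 0.113 CPM in AMs, reached 13.5 ± 12.8 and 7.08 ± 2.59 CPM in AM-LCs. Over the tested fatty acid carriers the median log2 fold change was -2.81, and none of these 4 was called between AM-LCs and the other TRM-LCs.

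Carbonic anhydrases were also split. Of 16 genes 9 were tested, Car4 was called higher in sorted AMs, Car13, Car2 and Car6 were called higher in AM-LCs, and 5 were not called (median log2 fold change -0.13). Car13, a cytosolic enzyme, was at 3.75 ± 0.383 CPM in AMs and 52.2 ± 9.31 CPM in AM-LCs. Car2 rose to 11.1 ± 4.10 CPM and Car6, a secreted enzyme, to 9.86 ± 5.68 CPM. Car5b, of mitochondria, was at 29.2 and 18.8 CPM and was not called.

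Among 26 keratins 8 were tested, 4 were called higher in sorted AMs and 2 in AM-LCs (median log2 fold change 2.28). Krt19, a keratin of simple epithelia, went with Krt79, at 999.8 ± 72.8 CPM in AMs and 16.03 ± 12.5 CPM in AM-LCs. Krt80 and Krt78 were the other 2 called higher in AMs, at 15.8 and 6.07 CPM. Krt7 was called higher in AM-LCs, at 7.02 ± 9.61 CPM against 0.0912 CPM, as was Krt10. Of the RNase A family, 8 of 15 genes were tested, Ear1, Ear2, Rnase6 and Rnase2b were called higher in AMs and Ear6 and Rnase2a in AM-LCs (median 1.92). Rnase6 was at 59.1 ± 5.97 and 11.4 ± 7.77 CPM, and Ang and Rnase4 were not called.

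Cidec was 1 of 3 lipid droplet genes called higher in AMs. Of 23 genes 18 were tested, 1 was called higher in AM-LCs and 14 were not called (median log2 fold change 0.27), beside 8.62% of all genes called higher in AMs and 12.9% in AM-LCs. Plin2, the main droplet coat protein of macrophages, was at 1954 ± 135 CPM in AMs and 1122 ± 381 CPM in AM-LCs, Plin3 at 219 and 424 CPM and Mgll, a monoacylglycerol lipase, at 242 and 484 CPM. Dgat2, which makes triglyceride, and G0s2, an inhibitor of lipolysis, were the other genes called higher in AMs, and Soat1, which esterifies cholesterol, was called higher in AM-LCs (386 ± 17.2 and 1233 ± 154 CPM).

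Pparg itself was at 349 ± 21.9 CPM in AMs and 95.1 ± 24.6 CPM in AM-LCs (log2 fold change 1.86, SE 0.21, adjusted p = 5.66e-04, edgeR). Of the 20 genes of the list of PPAR gamma and its targets, which holds Fabp1 and Cidec, 19 were tested, 11 were called higher in AMs and 3 in AM-LCs (median 1.86). The called targets went in both directions. Ucp2, an inner membrane protein of mitochondria, was at 3413 ± 82.2 and 532 ± 53.2 CPM, while the scavenger receptor Cd36 was at 435 ± 38.6 and 2363 ± 1003 CPM. Lpl, at 3314 and 4983 CPM, was not called. Against the other TRM-LCs, 4 of 19 genes of this list, Fabp1 and Cidec among them, were called higher in AM-LCs, beside 4.75% of all genes. Pparg was not among the 4 (adjusted p = 0.178, edgeR).

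Of 16 genes of GM-CSF signalling, Irf4 and Socs1 were called higher in AM-LCs, 0 were called higher in AMs and 14 were not called (median log2 fold change 0.09), against 12.9% and 8.62% of all genes. The receptor chains Csf2rb (842 ± 71.7 and 887 ± 146 CPM) and Csf2ra (662 ± 57.5 and 387 ± 55.1 CPM) were not called, nor were the transcription factors Spi1 and Bhlhe40. Some genes passed the p threshold (edgeR) but not the fold threshold. Csf2ra, Spi1, Stat5a and Stat5b were lower in AM-LCs, at log2 fold changes of 0.77, 1.02, 1.47 and 1.14. Bcl2l1 and Socs3 were higher in AM-LCs, at -1.41 and -1.23. Compared with the other TRM-LCs, Csf2rb, Irf4 and the feedback inhibitors Socs1, Socs2 and Cish were called higher in AM-LCs, 5 of 16 genes beside 4.75% of all genes. Of 20 other known AM genes, 10 were called higher in AMs and 3, Ctsk, Fabp4 and Fabp5, in AM-LCs (median 1.22). Against the other TRM-LCs, 15 of 20 were called higher in AM-LCs, beside 4.75% of all genes. As for the members, that direction was not open, since these were chosen as AM genes. Chil3, a chitinase-like protein that AMs secrete, was at 20270.0 ± 1662 CPM in AMs and 4468 ± 3672 CPM in AM-LCs, between the levels kept by Plet1 and Car4.

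**Figure D5:**
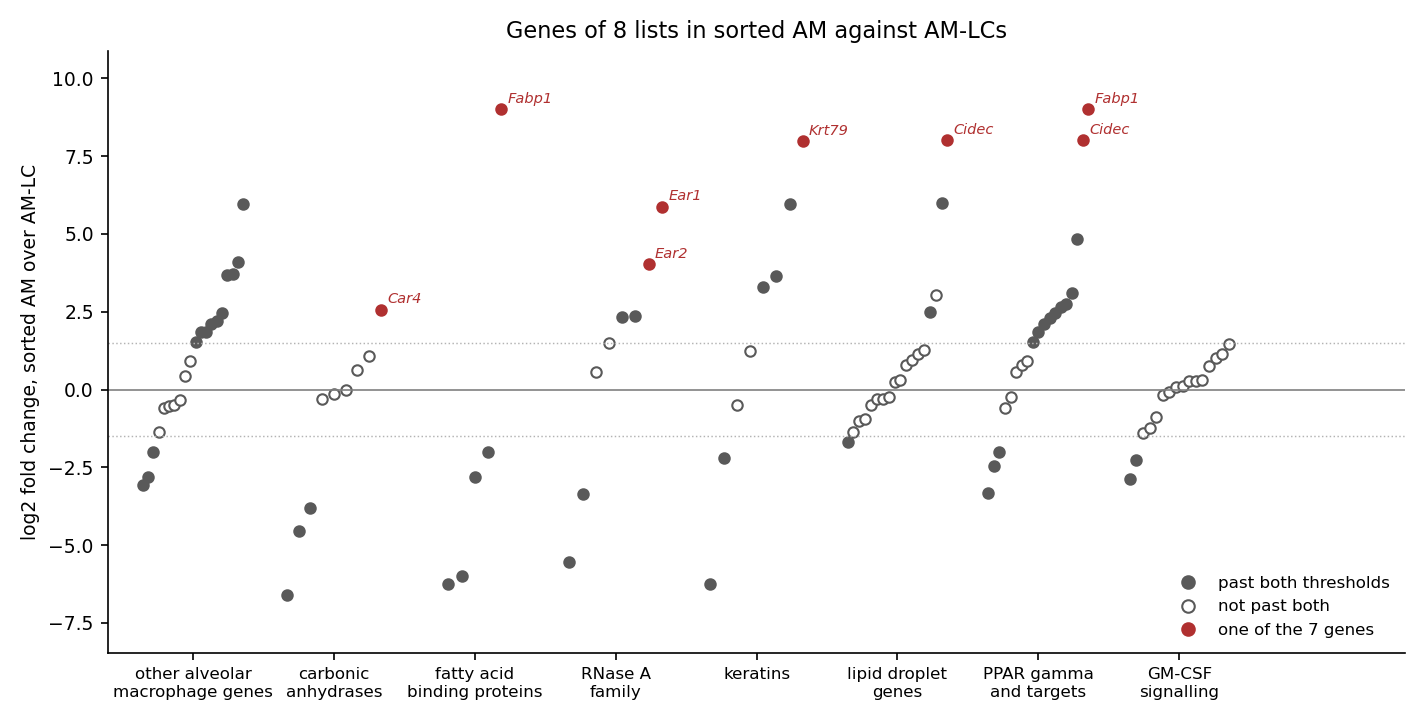
Log2 fold change of sorted AMs over AM-LCs for the tested genes of 8 lists, ordered by value within each list. Red marks genes of the set of 7, filled points passed both thresholds, and dotted lines mark a log2 fold change of 1.5 in each direction. The members sit at the top of their own families, with Fabp1 at 9.02 while the 4 other fatty acid binding proteins lie below -2.

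Across the 24 libraries, the genes most like the members in log2 CPM were, by mean Pearson r over the 7 genes, Wfdc21 (0.92), Vstm2a (0.92), Wfdc10 (0.91), Ucp3 (0.90), Gm43181 (0.90), Gm28100 (0.90), Chil4 (0.89), Krt78 (0.89), Gsap (0.89) and Gm6522 (0.89). These values describe groups of libraries that share organ and culture, and they are given without a test. Within the set, Krt79 and Cidec were each other's nearest member (r = 0.97), and Fabp1 was closest to Ear2 (0.94). For single members the closest gene was Wfdc21 for Car4 (0.96) and Plet1 (0.97), Krt78 for Ear1 (0.98), Lepr for Ear2 (0.96), D630039A03Rik for Fabp1 (0.95) and Vstm2a for Cidec (0.97). Wfdc21, a small secreted protein with a whey acidic protein domain, was at 243 ± 38.7 CPM in AMs and 76.4 ± 52.3 CPM in AM-LCs, 31.4% of the level, and at no more than 2.98 CPM in any other library.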

How the data were processed

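RNA was prepared with the SMARTer and Nextera XT kits, which do not keep strand, and sequenced as single reads in 24 libraries. The authors trimmed the reads with Trimmomatic, aligned them to mm10 with STAR and deposited raw read counts per gene, without normalization or filter. The processing notes of the labels name Trimmomatic 0.36 and STAR 2.5.2b and also a human build, although the identifiers were those of mouse genes, and the annotation release is not given in the sources used here. Totals were 29569486 to 47105111 counted reads per library, and 563 of the 45706 identifiers had no symbol in the GENCODE annotation used for names and positions. The labels do not say whether the libraries of a group came from separate mice or cultures, so that p-values measure the spread between these libraries, which may be technical. The libraries within a group differed by more than counting noise (chi-square per degree of freedom of at least 12.9).

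The deposited counts were tested with edgeR 4.0.16 (quasi-likelihood, two-sided, TMM factors, filterByExpr with a minimum count of 10) in R 4.3.3, with thresholds of 0.05 on the Benjamini-Hochberg adjusted p and 1.5 on the absolute log2 fold change. Standard errors (SE) are the log2 fold change over the square root of F. Sorted AMs were compared with AM-LCs (6 libraries), AM-LCs with the mean of the other TRM-LCs (12 libraries) and each other organ ex vivo with in vitro. A gene with few reads on 1 side of a comparison could pass the filter only through the other side, and its call is then a description. The procedure was tested on simulated data. CPM use TMM factors over all 24 libraries, log2 CPM a prior count of 2, and values after ± are SDs of 3 libraries. Folds with no adjustment by the model are ratios of mean CPM, for the other TRM-LCs of reads pooled over 9 libraries.

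Alternatives were limma-voom (limma 3.58.1), DESeq2 1.42.0, RLE factors, other filters and thresholds, 1 model of all libraries, a replicate block and leaving out each library. The 7 genes and the gene lists were chosen with earlier results of these data known. Named are the 7 genes, up to 4 genes per list with the highest mean CPM in AMs or AM-LCs, the Ear copies, and the 10 genes most like the members and the 3 most like each. Genes that complete a count of at most 5, and Pparg, Siglecf and the single markers, were named after their values were seen. Upstream sequences are from RefSeq, where all 7 genes were found by symbol, though for Car4 and the second start of Cidec the first bases after the RefSeq start were not in the GENCODE transcript used.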

Additional observations from a re-analysis of the deposited data

How the results depend on the processing

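The count of members called higher in sorted AMs than in AM-LCs was 5 to 7 over the alternatives. It was 6 to 7 when 1 library was left out, beside 943 to 1273 of all genes. The 7 genes kept their direction in all of these fits. Car4 lost its call in the model of all 24 libraries (5 called, beside 1007 of 17408 genes), and Plet1 gained one with a threshold of 1.5 on the fold itself (7 called). That threshold moved the genes called in this comparison to 2701 higher and 3033 lower, and those called for AM-LCs against the other TRM-LCs to 1186 higher and 680 lower. DESeq2 called 615 genes lower in AM-LCs than in the other TRM-LCs, and gave no adjusted p for Krt79 in the first comparison and for Fabp1 in the second. With each library left out in turn, 417 to 945 genes were called higher and 125 to 467 lower in AM-LCs than in the other TRM-LCs, and 4 to 7 members. Without AM-LC replicate 2 they were 4 members, with 417 genes higher and 125 lower, and the genes lower were 219 without AM-LC replicate 1 and 223 without AM-LC replicate 3. A filter of 1 CPM in at least 3 libraries left out Fabp1, Cidec and Krt79, so that 4 members were tested and called, beside 599 of 12581 genes called higher. Against MG-LCs, KC-LCs and PM-LCs taken singly, 3 members were called. In 1 model of all 24 libraries, 7 members were called higher in sorted KCs than in KC-LCs, beside 2619 of all 17408 genes. The filter of that model took in the AM libraries, and some members had few reads in KCs. Cidec had 2, 0 and 127 reads and Ear1 21, 3 and 7 in the 3 KC libraries. Leaving out libraries for KCs, MG, PMs, the interaction and the ratios of levels was chosen after seeing the data, and gave, beside the ratios printed with each gene, 3 to 4 members in KCs, 0 in MG and PMs and 0 to 1 in the interaction, 1 without PM-LC replicate 2. In the KC fits 1348 to 2133 of all genes were called higher. In the interaction limma-voom called 5 members, beside 1785 genes called higher and 1666 called lower of 17408, and the calls of these members, with few or no reads in MG and PMs, are a description. The log2 difference of Ear2 ran from -1.57 to 0.11 with 1 library left out, turning from -0.73 to 0.11 without MG replicate 2 and 0.11 without PM replicate 3. The levels in AM-LCs as a percent of sorted AMs moved by less than 1 SD with RLE factors. With 1 of 3 AM-LC libraries left out, a mean cannot move by 1 SD of the same libraries, so only the ranges are given. With each library left out, the levels ranged from 7.78% to 23.0% for Car4, 0.135% to 0.242% for Fabp1, 1.31% to 2.34% for Ear1, 5.03% to 7.94% for Ear2, 0.0628% to 0.596% for Krt79, 30.7% to 44.4% for Plet1 and 0.136% to 0.519% for Cidec. Of the 10 genes most like the members, 4 remained with Spearman's in place of Pearson's correlation.

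Same-numbered libraries of AMs and AM-LCs did not deviate together (correlations of -0.00013 to 0.0299), and neither labels nor methods pair them. With replicate number as a block, 6 members were called in AMs against AM-LCs, beside 1151 of 13196 genes called higher. In AM-LCs against the other TRM-LCs 5 were called, beside 623 of 14813 genes, and in KCs 3, beside 1632 of 13629. These calls in AM-LCs and KCs remain a description. In the interaction 0 members were called, beside 1643 genes called higher and 1276 lower of 17408. The calls lost were those of Fabp1 (adjusted p = 0.0714) and Cidec (adjusted p = 0.0548) in AM-LCs. Depth limits Fabp1, Cidec, Ear1 and Krt79 in the cultures, where few or no reads were found.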
